A study of Mus musculus with 2 samples.

Results

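The interstitial collagens described here are 10 genes, *Col1a1*, *Col1a2*, *Col3a1*, *Col5a1*, *Col5a2*, *Col5a3*, *Col8a1*, *Col12a1*, *Col14a1* and *Col15a1*, of the 33696 genes counted. They were chosen by symbol, with no measured value in the rule, and all 10 were found in the count matrices of both libraries. Single-cell RNA sequencing was made from the suprarenal abdominal aorta of male C57BL/6J mice aged 5 months, to map the cells of the aortic wall in an abdominal aortic aneurysm model. The Control mice received saline, and the AngII+HS mice received angiotensin II (AngII) from an implanted osmotic minipump for 28 days together with drinking water that held NaCl and KCl. The labels name no genotype, and the strain and age are those of the study's methods. Each condition gave 1 library from pooled tissue, so that no replicate error exists and no test between the conditions was possible. The series design states that 5 mice were pooled per sample, while the extraction protocol names 1 Control mouse and 2 AngII+HS mice.

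Collagens are triple helices of 3 alpha chains that are folded in the endoplasmic reticulum, secreted as procollagen, trimmed and cross-linked outside the cell. Types I and III form the load-bearing fibrils of the arterial adventitia and media, and type V joins and nucleates these fibrils. Type VIII is a short-chain network collagen of the vessel wall, types XII and XIV bind to fibril surfaces, and type XV is a proteoglycan of basement membrane zones. *Col1a1* and *Col1a2* encode the chains of type I, *Col3a1* the single chain of type III, and *Col5a1*, *Col5a2* and *Col5a3* the chains of type V.

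The RefSeq promoter table, on build GRCm38.p6, held 6 of the 10 members and lacked *Col1a1*, *Col5a2*, *Col12a1* and *Col14a1*. Of those held, the start regions of 4 are shown, *Col1a2* and *Col3a1* for contrasts in fibroblasts and *Col8a1* and *Col15a1* for contrasts in endothelial cells. The sequences are the 250 bases upstream of the annotated start. Capitals mark 4 motifs on either strand, namely the CCAAT box, the TATA box written as TATAAA, the GC box written as GGGCGG, and the AP-1 site written as TGANTCA, none of which contains another. The *Col1a2* window was chr6:4505368-4505617 on the + strand, *Col3a1* chr1:45311288-45311537 on the + strand, *Col8a1* chr16:57754738-57754987 on the - strand and *Col15a1* chr4:47207762-47208011 on the + strand.
Col1a2: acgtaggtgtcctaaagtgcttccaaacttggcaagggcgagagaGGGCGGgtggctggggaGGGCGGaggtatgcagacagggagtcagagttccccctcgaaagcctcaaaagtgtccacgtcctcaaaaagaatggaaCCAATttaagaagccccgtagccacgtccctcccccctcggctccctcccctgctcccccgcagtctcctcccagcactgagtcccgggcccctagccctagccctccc
Col3a1: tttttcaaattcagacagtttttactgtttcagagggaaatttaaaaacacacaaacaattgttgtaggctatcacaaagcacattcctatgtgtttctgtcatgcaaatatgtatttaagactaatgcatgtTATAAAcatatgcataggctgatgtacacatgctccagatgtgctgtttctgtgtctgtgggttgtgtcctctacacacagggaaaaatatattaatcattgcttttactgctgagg
Col8a1: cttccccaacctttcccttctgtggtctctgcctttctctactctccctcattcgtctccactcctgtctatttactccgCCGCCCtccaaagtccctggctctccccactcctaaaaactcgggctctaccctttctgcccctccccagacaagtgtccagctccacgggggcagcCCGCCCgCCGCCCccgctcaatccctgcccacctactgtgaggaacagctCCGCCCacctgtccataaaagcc
Col15a1: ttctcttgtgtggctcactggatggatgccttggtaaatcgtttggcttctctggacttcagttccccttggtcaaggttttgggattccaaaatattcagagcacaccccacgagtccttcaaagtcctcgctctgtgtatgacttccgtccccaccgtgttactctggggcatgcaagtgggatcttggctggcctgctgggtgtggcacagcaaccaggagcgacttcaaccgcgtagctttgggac
The *Col1a2* window held 1 CCAAT and 2 GGGCGG, the *Col3a1* window 1 TATAAA, the *Col8a1* window 4 GGGCGG and the *Col15a1* window none of the 4 motifs. Among 32851 promoters of the table, CCAAT was in 33.8%, TATAAA in 12.4%, GGGCGG in 32.7% and TGANTCA in 6.75%, so that each of these matches is common. The matches are of letters at any place in the 250 bases. Their distance from the start was not considered, so that a match need not be a working site. The GC content was 62.0% for *Col1a2*, 60.8% for *Col8a1*, 53.6% for *Col15a1* and 35.2% for *Col3a1*, against a median of 52.4% over the table.

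The Control library held 11448 barcodes with 86618995 unique molecular identifiers (UMIs, one per captured RNA molecule), while 24804 barcodes and 117146856 UMIs came from AngII+HS. After filters and doublet removal, 10269 Control and 19734 AngII+HS cells remained, with medians of 7274 and 3065.5 UMIs. Each library's barcode list is as long as the matrix of the other library, and the matrices were taken under the sample that holds them. The 2 lists share 67 barcodes. An exchange of the matrices would reverse each difference between the libraries given here, and this was not tested. In the matrices as taken, VSMCs were 52.4% of kept Control and 4.49% of kept AngII+HS cells, macrophages 4.85% and 22.9%, and neutrophils 0.964% and 23.6%. The study also reports a lower proportion of VSMCs and higher proportions of macrophages and neutrophils in AngII+HS. Cell types were named from markers that include no collagen, and the 10 members were left out of the clustering. All 7 fibroblast markers were detected in fibroblasts of both libraries, where their summed level was 14451 CPM (counts of a gene per 1e+06 UMIs of the cell type) in Control and 15000 CPM in AngII+HS. The sequencing tags the 3′ end once per molecule, so that CPM is not scaled by gene length, and it is a share of the mRNA of a cell type rather than an amount. Intervals are 95% exact intervals and cover counting error only.

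The summed level of the 10 collagens was higher in AngII+HS than in Control in all 4 stromal, muscle, endothelial and glial cell types. In fibroblasts it was 11674 CPM in 2689 Control cells and 42233 CPM in 4724 AngII+HS cells, so that the members made up 1.17% and 4.22% of all UMIs. In vascular smooth muscle cells (VSMCs) the sum was 2918.5 CPM in 5385 Control and 6244 CPM in 886 AngII+HS cells. Fibroblasts were the highest in both libraries, followed by VSMCs. Schwann cells, the glia of peripheral nerves, had 2168 CPM in 149 Control and 4768 CPM in 449 AngII+HS cells. In vascular endothelial cells (VECs) the sum was 546 CPM in 838 Control and 1352 CPM in 1203 AngII+HS cells. The log2 ratios of AngII+HS over Control were 1.85 (1.85 to 1.86) in fibroblasts, 1.10 (1.08 to 1.11) in VSMCs, 1.14 (1.04 to 1.23) in Schwann cells and 1.31 (1.24 to 1.37) in VECs. T and B cells, which are not known to make these collagens and give the level of free RNA in droplets, had 131 CPM in 229 Control and 806 CPM in 2093 AngII+HS cells, a log2 ratio of 2.62 (2.36 to 2.89). As CPM, the free RNA level was itself higher in AngII+HS, by a larger ratio than in any of the 4 cell types. As UMIs per cell, the ratio of T and B cells was smaller than that of fibroblasts and larger than those of the other types. The median depth of T and B cells was 3770 UMIs in Control and 2129 UMIs in AngII+HS. The sum per cell was 45.8 UMIs in Control and 252 UMIs in AngII+HS fibroblasts, 29.1 and 45.6 in VSMCs, 6.85 and 13.2 in Schwann cells, 2.82 and 6.96 in VECs, and 0.533 and 1.89 in T and B cells.

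**Figure D1:**
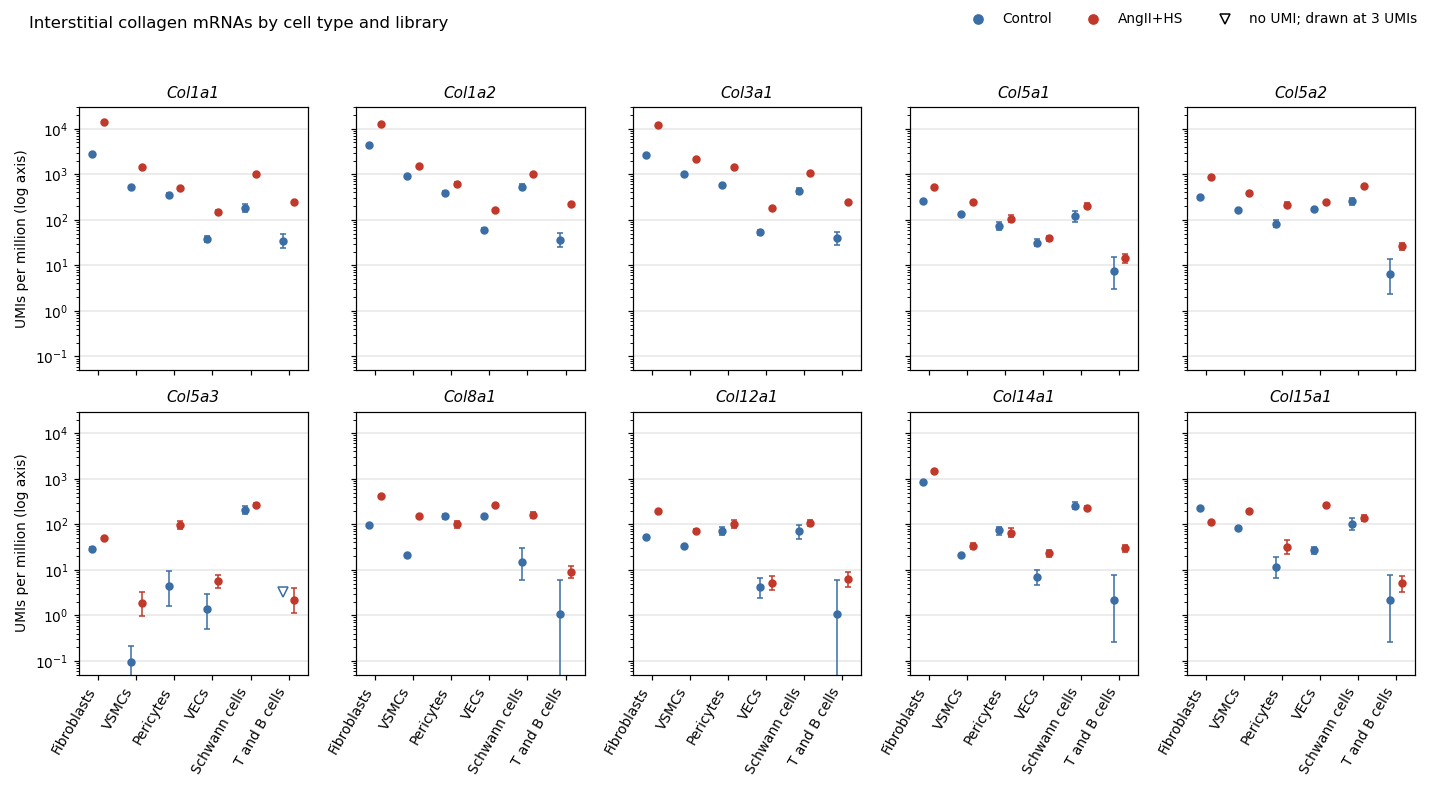
Each panel shows 1 collagen gene, with the CPM on a log axis in each cell type of the Control and AngII+HS libraries and 95% exact Poisson intervals that cover counting error only. Fibroblasts are highest for *Col1a1*, *Col1a2* and *Col3a1* in both libraries, and VECs have the highest *Col15a1* level of AngII+HS.

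Single fibroblasts varied widely within each library. The members took 0.299% of a cell's UMIs at the 10th percentile of Control fibroblasts, 0.929% at the median and 2.46% at the 90th percentile, against 0.789%, 2.85% and 7.93% in AngII+HS. The median AngII+HS fibroblast held a larger share than the 90th percentile of Control. In VSMCs the medians were 0.270% and 0.548%, and in VECs 0.0388% and 0.104%. In Schwann cells the medians were 0.193% and 0.272%, and the 90th percentiles 0.456% and 0.859%. With each cell thinned to 1000 UMIs, 75.2% of 2230 Control and 94.5% of 4563 AngII+HS fibroblasts had a *Col1a1* UMI, against 89.1% and 98.5% without thinning. For *Col8a1* the thinned shares were 5.47% and 22.9%, and 10.8% and 49.8% without thinning. For *Col15a1* they were 19.6% and 8.83%, and 38.8% and 27.6% without thinning. In T and B cells the unthinned shares were 0.437% and 2.15% for *Col8a1* and 0.873% and 1.19% for *Col15a1*, at median depths of 3770 and 2129 UMIs against 3286 and 5120 UMIs in fibroblasts.

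Of the 10 members, 7 were at least 2-fold higher in AngII+HS fibroblasts, where 5.74% of all genes with at least 50 UMIs passed that fold, and 1 was at least 2-fold lower, where 6.76% did. The median log2 ratio was 1.49 over the members and -0.16 over all genes. Scaling by TMM moved all fibroblast ratios up by 0.21, which left *Col15a1* at -0.87, and *Col5a1* was at 0.86 with double the doublets removed, so that both lay near the 2-fold limit. The fibril-forming chains of types I and III had the highest levels. *Col1a1* (chr11:94827050-94843868, + strand, GRCm39) had 2765 CPM in Control and 14069 CPM in AngII+HS fibroblasts, a log2 ratio of 2.35 (2.33 to 2.36). *Col1a2* (chr6:4504814-4541555, + strand) had 4432 and 12640 CPM, a log2 ratio of 1.51 (1.50 to 1.53). *Col3a1* (chr1:45350698-45395840, + strand) had 2641 and 11885 CPM, a log2 ratio of 2.17 (2.15 to 2.19). By UMIs, *Col1a1* ranked 19th in Control and 2nd in AngII+HS among all genes of these cells, *Col1a2* 9th and 3rd, and *Col3a1* 22nd and 4th. The 3 genes were therefore among the most abundant mRNAs of both libraries, with the order of *Col1a1* and *Col1a2* exchanged.

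Type V chains were present at lower levels than those of types I and III. *Col5a1* (chr2:27776397-27929526, + strand) had 255 CPM in Control and 523 CPM in AngII+HS fibroblasts, a log2 ratio of 1.04 (0.98 to 1.10). *Col5a2* (chr1:45412554-45542442, - strand), which lies 16.7 kb from *Col3a1* and runs towards it, had 321 and 884 CPM, a log2 ratio of 1.46 (1.41 to 1.51). *Col5a3* (chr9:20681337-20726418, - strand) had 29.0 and 49.3 CPM, a log2 ratio of 0.77 (0.59 to 0.95). The *Col5a3* difference rested on 1 cluster: without cluster 19, which held AngII+HS cells only, the log2 ratio was 0.22, and with double the doublets removed it was -0.27.

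Among the collagens that do not form fibrils on their own, *Col8a1*, *Col12a1* and *Col14a1* were higher in AngII+HS fibroblasts and *Col15a1* was lower. *Col8a1* (chr16:57444621-57575100, - strand) had 94.4 CPM in Control and 409 CPM in AngII+HS, a log2 ratio of 2.12 (2.02 to 2.21). *Col12a1* (chr9:79506268-79626135, - strand) had 51.6 and 192 CPM, a log2 ratio of 1.89 (1.77 to 2.02). *Col14a1* (chr15:55171140-55384199, + strand) had 852 and 1471 CPM, a log2 ratio of 0.79 (0.76 to 0.82). *Col15a1* (chr4:47207582-47313179, + strand) had 234 and 109.9 CPM, a log2 ratio of -1.09 (-1.16 to -1.01), and as UMIs per cell it had 0.916 and 0.656, a log2 ratio of -0.48. It was the only member lower in AngII+HS fibroblasts, and its level was lower in each of the 4 clusters that both libraries share.

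**Figure D2:**
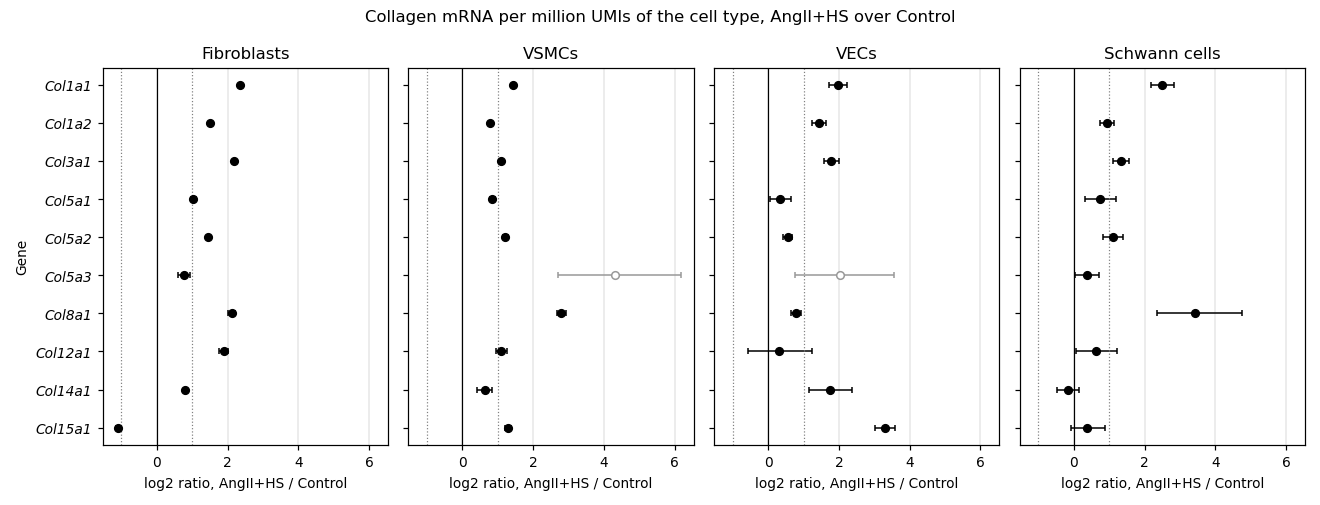
Each point is the log2 ratio of AngII+HS over Control of 1 collagen gene in fibroblasts, VSMCs, VECs or Schwann cells, with bars for the 95% exact interval of counting error. *Col15a1* lies below 0 in fibroblasts at -1.09 and reaches 3.29 in VECs.

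The share of *Col1a2* relative to *Col1a1* differed between the libraries. In fibroblasts, there were 1.60 *Col1a2* UMIs per *Col1a1* UMI (1.58 to 1.63) in Control and 0.898 (0.894 to 0.902) in AngII+HS. In VSMCs the ratio was 1.69 (1.67 to 1.72) and 1.06 (1.04 to 1.10), and in Schwann cells 2.90 (2.26 to 3.74) and 0.994 (0.919 to 1.08). In VECs it was 1.55 (1.27 to 1.89) and 1.07 (0.974 to 1.17). Macrophages had 1.83 (1.31 to 2.56) and 0.925 (0.881 to 0.972), and the type I level of AngII+HS VECs was not above that of T and B cells as CPM. T and B cells had 1.06 (0.636 to 1.78) and 0.885 (0.815 to 0.961), the former from only 34 and 32 UMIs, so that a difference like that of fibroblasts was not detectable there. In pericytes the ratio was 1.12 (0.986 to 1.27) and 1.25 (1.12 to 1.41), and in venous VECs 0.767 (0.425 to 1.37) and 0.907 (0.765 to 1.08). The ratio of *Col3a1* to *Col1a1* was below 1 in fibroblasts (0.955 and 0.845) and above 1 in VSMCs (1.87 and 1.47) in both libraries. Within fibroblasts it was above 1 in cluster 3 of Control, at 1.35, and cluster 19 of AngII+HS, at 1.30, and otherwise below 1. *Col5a2* exceeded *Col5a1* by 1.26 in Control and 1.69 in AngII+HS fibroblasts, and by 5.46 and 6.29 in VECs. UMI ratios between genes also depend on how each 3′ end is captured, so the change between libraries is the comparable part.

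The fibroblast clusters, called by some of their 10 leading genes, differed in which members were high. Leading genes were ranked against cells of other types, so that fibroblast clusters can share them, and *Dcn* was among them in each. Cluster 3, led by *Sfrp4* and *Clec3b*, held 799 Control and 1534 AngII+HS cells and had *Col1a1* at 2043 CPM in Control and 17881 CPM in AngII+HS, and *Col3a1* at 2759 and 16123 CPM. Cluster 5, with 923 and 1168 cells, had *Dio2* and *Gdf10* among its leading genes. It had *Col1a1* at 2871 and 9011 CPM and *Col3a1* at 2241 and 5826 CPM. The type I and III differences were largest in cluster 3 of the 4 clusters that both libraries share. Merged without integration, a fibroblast cluster with *Sfrp4* among its leading genes held 9 Control and 2309 AngII+HS cells. A separate one led by *Clec3b* held 783 and 536, so that the make-up of cluster 3 depends on the clustering. Cluster 7, with 237 and 1338 cells, had *Comp*, *Fmod* and *Sfrp2* among its leading genes. It had *Col8a1* at 68.4 and 784 CPM, and *Col12a1* at 54.9 and 359.6 CPM. In cluster 3, *Col8a1* was 137 and 205 CPM, a log2 ratio of 0.58 (0.45 to 0.72) against 3.52 (3.18 to 3.88) in cluster 7. Cluster 7 held 237 of 2689 Control and 1338 of 4724 AngII+HS fibroblasts. Ratios over all fibroblasts therefore also follow this make-up. Cluster 19, led by *Prg4*, *Timp1* and *Mmp13*, held 166 AngII+HS and no Control cells, and had *Col5a2* at 1842 CPM, *Col5a3* at 225 CPM and *Col14a1* at 315 CPM. These values were above the other 4 AngII+HS clusters for both type V chains and below them for *Col14a1*. Cluster 19 had a high depth, with a median of 13603.5 UMIs, and its extent followed the doublet removal. A cluster led by *Prg4* and *Timp1* held 557 cells with no doublets removed, and no such cluster was found with double the doublets removed. *Col15a1* was 122 and 65.7 CPM in cluster 3, 328 and 142 CPM in cluster 5, 198 and 113 CPM in cluster 7, and 338 and 115 CPM in cluster 8, a cluster of low depth with a median of 1093.5 UMIs.

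**Figure D3:**
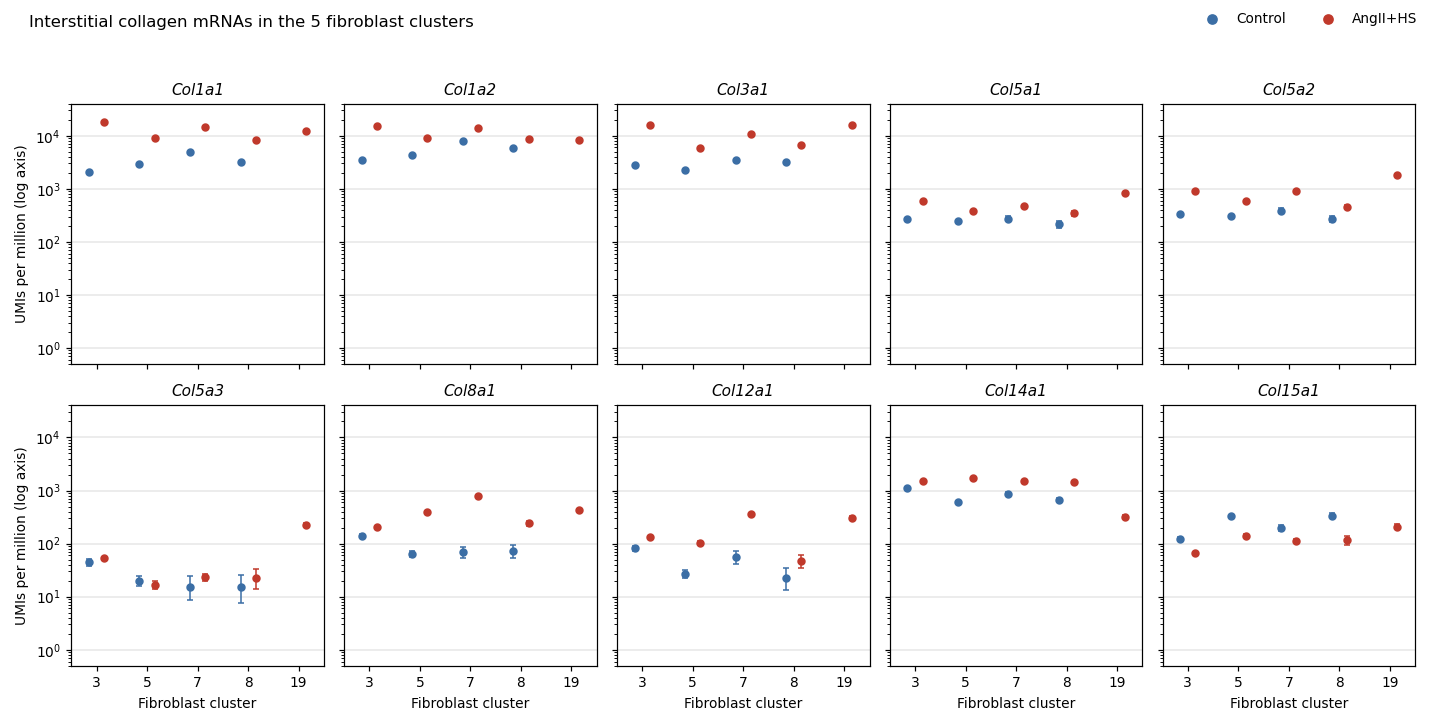
Each panel shows 1 collagen gene in the 5 fibroblast clusters, with CPM on a log axis and 95% exact Poisson intervals, Control beside AngII+HS. Cluster 19 holds AngII+HS cells only and has the highest *Col5a3* level, 225 CPM.

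In VSMCs, 6 of the 9 members with at least 50 UMIs were at least 2-fold higher in AngII+HS, where 4.35% of all genes were, and 0 were at least 2-fold lower, where 7.54% were. The median log2 ratio was 1.10 over these members and -0.03 over all genes. *Col1a1* had 538 CPM in Control and 1459.7 CPM in AngII+HS, a log2 ratio of 1.44 (1.41 to 1.47). *Col1a2* had 912 and 1554 CPM, a log2 ratio of 0.77 (0.74 to 0.80). *Col3a1*, the highest member in VSMCs of both libraries, had 1007 and 2141 CPM, a log2 ratio of 1.09 (1.06 to 1.12). The type V chains followed, with *Col5a1* at 137 and 246 CPM (log2 ratio 0.84) and *Col5a2* at 167 and 389 CPM (log2 ratio 1.22). *Col5a3* had 5 UMIs in Control and 12 in AngII+HS, too few to compare. As UMIs per cell, *Col8a1* alone of the 9 members was at least 2-fold higher, with a log2 ratio of 2.34, against 0.99 for *Col1a1*, 0.64 for *Col3a1*, 0.77 for *Col5a2*, 0.65 for *Col12a1* and 0.84 for *Col15a1*. In cluster 6 the sum per cell was lower in AngII+HS, at 24.1 and 19.3 UMIs, while as CPM it was 2848 and 6591. Median depths were 9711 UMIs in Control and 6987.5 UMIs in AngII+HS VSMCs, and 8702 and 2348 UMIs in cluster 6. With the T and B level subtracted as CPM, *Col3a1* was at 0.97 and 5 of the members were at least 2-fold higher.

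The network collagen *Col8a1* had the largest ratio in VSMCs, with 21.6 CPM in Control and 149 CPM in AngII+HS, a log2 ratio of 2.79 (2.67 to 2.92). Cluster 13 had *Col19a1*, *Cnn1*, *Acta2* and *Rgs5* among its leading genes. *Col8a1* was high there in both libraries, at 98.2 and 309 CPM. In cluster 6 it was 16.2 and 324 CPM, and in cluster 1, which held most Control VSMCs, 10.5 and 87.7 CPM. *Col8a1* was higher in AngII+HS in each of the 3 VSMC clusters. *Col12a1* was 33.6 and 71.9 CPM over all VSMCs, a log2 ratio of 1.10 (0.95 to 1.25), with 90.7 and 296 CPM in cluster 13 and 23.6 and 27.2 CPM in cluster 1. *Col15a1* was 81.4 and 199 CPM, a log2 ratio of 1.29 with an interval wholly above 0, opposite in sign to fibroblasts. *Col14a1* was 21.6 and 33.4 CPM, and its AngII+HS interval overlapped that of T and B cells at 29.9 CPM. After the T and B level was subtracted as CPM its log2 ratio was -2.47. The summed fibroblast markers in VSMCs were 175 CPM in Control and 395 CPM in AngII+HS, and their part in these values was not tested.

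In VECs, 5 of the 9 members with at least 50 UMIs were at least 2-fold higher in AngII+HS, where 6.07% of all genes were, and 0 were at least 2-fold lower, where 4.39% were. The median log2 ratio was 1.43 over these members and 0.05 over all genes. In T and B cells it was 2.58 over the 6 members with at least 50 UMIs and 0.03 over all genes. *Col1a1* was 38.8 CPM in Control and 152 CPM in AngII+HS, *Col1a2* 60.0 and 162 CPM, and *Col3a1* 53.3 and 185 CPM. These 3 levels in AngII+HS were below those of T and B cells, at 249, 221 and 242 CPM. As UMIs per cell, however, they were above, for *Col3a1* at 0.949 in VECs against 0.570 in T and B cells, and the median depths were 3952 UMIs in VECs and 2129 UMIs in T and B cells. With each cell thinned to 1000 UMIs, 16.9% of AngII+HS VECs and 22.0% of T and B cells had a *Col1a1* UMI, and without thinning 48.2% and 41.6% did. The type I and III values of AngII+HS VECs were therefore not above free RNA on the CPM scale. Removing the T and B level as CPM left 1 of the members at least 2-fold higher, and removing it as UMIs per cell left 3. With no doublets removed, 8 of the members were at least 2-fold higher and the log2 ratio of the sum was 2.49. The summed fibroblast markers in VECs were 275 CPM in Control and 303 CPM in AngII+HS, against 64.6 and 256 CPM in T and B cells, and their part in these values was not tested.

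The members whose intervals in VECs lay above those of T and B cells on both scales were *Col1a2*, *Col5a1*, *Col5a2*, *Col8a1* and *Col15a1* in Control. In AngII+HS they were *Col5a1*, *Col5a2*, *Col8a1* and *Col15a1*. In Control, *Col1a2* was not above on both scales in arterial, capillary or venous VECs taken singly, but it was in arterial subcluster 3. Of the 260 *Col1a2* UMIs of Control VECs, 61 came from 11 cells of subcluster 6. That subcluster took no name, and the pericyte markers *Notch3* and *Abcc9* were among its leading genes. *Col5a2* was 171 CPM in Control and 251 CPM in AngII+HS VECs, a log2 ratio of 0.55 (0.42 to 0.68), against 6.46 and 26.0 CPM in T and B cells. *Col8a1* was 152 and 262 CPM, a log2 ratio of 0.79 (0.66 to 0.92), against 1.08 and 9.14 CPM. *Col15a1* was 27.2 and 266 CPM, a log2 ratio of 3.29 (3.02 to 3.57), against 2.15 and 5.08 CPM, from 2 and 25 UMIs. *Col5a1* was 31.4 and 39.9 CPM, a log2 ratio of 0.35 (0.04 to 0.66). The remaining members were rare in VECs, with *Col12a1* at 4.16 and 5.17 CPM, *Col14a1* at 6.93 and 23.1 CPM, against 2.15 and 29.9 CPM in T and B cells, and *Col5a3* at 6 and 35 UMIs.

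Subpopulations of VECs, clustered without the members and named from their own markers, differed in these genes. Arterial VECs, with 488 Control and 384 AngII+HS cells, had *Col5a2* at 233 and 658 CPM, a log2 ratio of 1.50 (1.36 to 1.63), and *Col8a1* at 218 and 707 CPM, a log2 ratio of 1.70 (1.56 to 1.84). Venous VECs, with 168 and 377 cells, had *Col5a2* at 123 and 49.7 CPM, a log2 ratio of -1.31 (-1.70 to -0.91), and *Col8a1* at 63.1 and 20.9 CPM, a log2 ratio of -1.59 (-2.18 to -1.01). The direction was opposite in arterial and venous VECs for both genes, within 1 library per group. The 5 arterial markers summed to 5575 and 8263 CPM in arterial and to 1031 and 418 CPM in venous VECs. In venous VECs the highest single marker was at 835 CPM in Control and 198 CPM in AngII+HS. The lower venous sum did not hold for each of the 5, since *Sox17*, a transcription factor among them, was 20.3 and 88.9 CPM there. The part of the arterial markers in the venous *Col5a2* and *Col8a1* values was not tested. *Col15a1* showed the reverse distribution, at 3.04 CPM in Control and 4.25 CPM in AngII+HS arterial VECs, 39.5 and 166 CPM in capillary VECs (142 and 415 cells), and 80.0 and 582 CPM in venous VECs. Its log2 ratio was 2.86 (2.52 to 3.23) in venous and 2.07 (1.48 to 2.71) in capillary VECs. Both lay below the 3.29 of all VECs. Arterial cells, low in *Col15a1*, were 488 of 838 Control and 384 of 1203 AngII+HS VECs. Ratios of any gene, and of the sum of the 10 members, over all VECs therefore also follow this make-up. That sum was 634 CPM in Control and 2075 CPM in AngII+HS arterial VECs. In capillary VECs it was 208 and 787 CPM, and in venous VECs 407 and 1063 CPM.

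The 2 venous subclusters differed. Subcluster 2, with 101 Control and 291 AngII+HS cells, had *Col5a2* at 64.8 and 23.2 CPM, *Col8a1* at 50.2 and 12.6 CPM and *Col15a1* at 94.0 and 631 CPM. In subcluster 4, with 67 and 86 cells, *Col5a2* was 256 and 288 CPM and *Col8a1* 92.6 and 95.9 CPM, and *Col15a1* was 48.1 and 144 CPM. The arterial values were likewise uneven: *Col8a1* was 233 and 720.1 CPM in subcluster 1, 152 and 800.5 CPM in subcluster 3, and 367 and 324 CPM in subcluster 5. Of the 2 venous subclusters, subcluster 2 thus had lower *Col5a2* and *Col8a1* in AngII+HS. There, neither gene was above the T and B cells of AngII+HS as CPM, while both were above over all AngII+HS venous VECs. In subcluster 4 the intervals of the ratio included 0 for both genes. Subcluster 4, the higher of the 2 in both genes, held 67 of 168 Control but 86 of 377 AngII+HS venous cells. The pooled venous ratios therefore also follow this make-up, and the part of each was not tested.

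**Figure D4:**
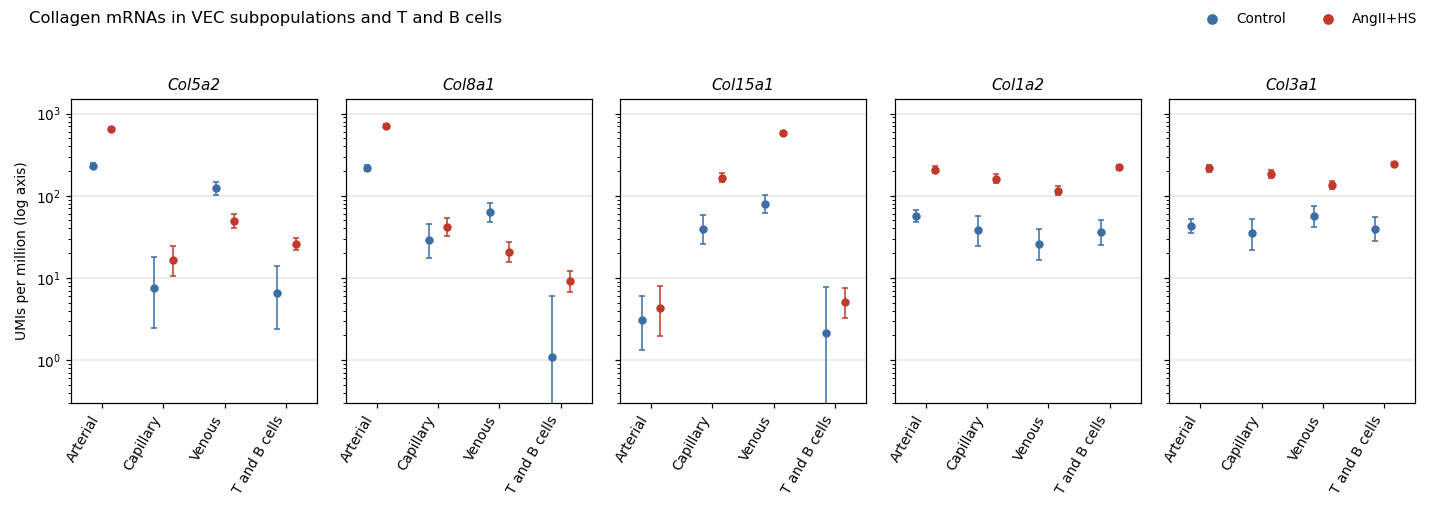
CPM on a log axis for collagen genes in arterial, capillary and venous VECs and in T and B cells, with 95% exact Poisson intervals, Control beside AngII+HS. *Col5a2* and *Col8a1* are highest in arterial and *Col15a1* in venous VECs.

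In Schwann cells, 4 of 10 members were at least 2-fold higher in AngII+HS, where 3.8% of all genes were, and 0 were at least 2-fold lower, where 1.76% were. The median log2 ratio was 0.84 over the members and -0.02 over all genes, against 2.58 over the 6 members counted in T and B cells. *Col1a1* was 183 CPM in Control and 1023 CPM in AngII+HS, a log2 ratio of 2.48 (2.17 to 2.82), while *Col1a2* was 529 and 1017 CPM, a log2 ratio of 0.94 (0.75 to 1.15). *Col3a1* was 429 and 1082 CPM, a log2 ratio of 1.33 (1.12 to 1.55). *Col5a2* was 255 and 549.6 CPM and *Col5a3* 206 and 265 CPM. *Col5a3* was thus higher in Schwann cells than in fibroblasts, at 29.0 and 49.3 CPM, in both libraries. *Col5a3* was 258 and 288 CPM in cluster 15, led by *Slc35f1* and *Cdh19*. *Col8a1* was 14.9 and 159.8 CPM, a log2 ratio of 3.43 (2.36 to 4.76) that rests on 7 UMIs in Control and 198 in AngII+HS. *Col14a1* was 257 and 228 CPM, a log2 ratio of -0.18 (-0.49 to 0.14), and *Col15a1* 104 and 136 CPM, both with intervals that include 0. *Col5a1* was 121 and 203 CPM, and *Col12a1* 70.1 and 107 CPM. The summed fibroblast markers in Schwann cells were 87.1 and 231 CPM, and their part in these values was not tested. With equal weight per cell, 2 of the members were at least 2-fold higher. The summed level was 2414 and 5076 CPM in cluster 15, and 1522 and 2554 CPM in cluster 21. Cluster 21, the lower in both libraries, held 53 of 149 Control and 96 of 449 AngII+HS Schwann cells. The sum over all Schwann cells therefore also follows this make-up. The 6 Schwann cell markers summed to 12913 CPM in Control and 7336 CPM in AngII+HS Schwann cells.

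In pericytes, with 165 Control and 214 AngII+HS cells, *Col3a1* was 586 and 1429 CPM and *Col5a3* 4.44 and 97.9 CPM. The *Col5a3* values rest on 6 UMIs in Control, not above T and B cells as CPM, and on 107 in AngII+HS. *Col8a1* was lower, at 149 and 101 CPM, a log2 ratio of -0.56 (-0.91 to -0.22). Pericytes and VSMCs differed in the sign of *Col8a1*, with no test of the difference. The pericyte cluster was led by *Pln*. At resolution 0.4, with double the doublets removed and merged without integration, no cluster was named pericyte. A cluster with *Pln* among its leading genes was named VSMC under these settings, so that the contrast depends on the clustering.

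The cells that held the collagen UMIs changed with the make-up of the libraries. Fibroblasts held 43.0% of the member UMIs of Control and 93.3% of AngII+HS, and VSMCs 54.7% and 3.17%. The kept cells held 5385 VSMCs in Control but 886 in AngII+HS, so that these shares also follow the numbers of cells captured. *Col15a1* had 46.3% of its AngII+HS UMIs in fibroblasts, 24.6% in VECs and 19.2% in VSMCs, and 35.0%, 1.68% and 62.0% of its Control UMIs. *Col5a3* had 22.7% of its Control and 16.8% of its AngII+HS UMIs in Schwann cells, although these cells were few. *Col8a1* had 38.2% of its Control UMIs in VSMCs, 32.8% in fibroblasts, 21.7% in VECs and 6.63% in pericytes.

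**Figure D5:**
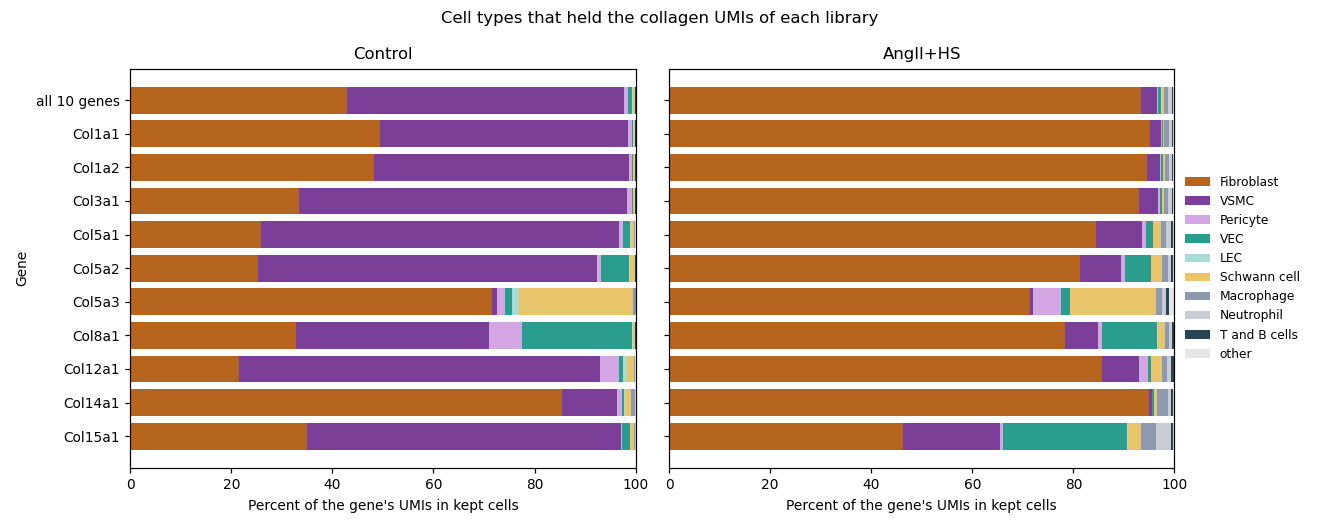
Stacked bars give the percentage of each gene's UMIs in kept cells of each cell type, for the Control and the AngII+HS library, on an axis from 0 to 100%. The fibroblast part of all 10 genes is 43.0% in Control and 93.3% in AngII+HS.

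Genes that fold, trim, cross-link or bind collagen were read from lists of known function, with at least 200 UMIs over both libraries. In fibroblasts, 3.89% of all genes with at least 200 UMIs, listed or not, were at least 2-fold higher and 3.93% at least 2-fold lower. Of 19 folding and modification genes, 3 were higher, *P4ha3* and *Plod2*, which hydroxylate proline and lysine, and *Sparc*, a collagen-binding glycoprotein at 3403 and 9215 CPM, and 0 were lower. *Serpinh1*, the collagen chaperone HSP47, was 1543 CPM in Control and 1521 CPM in AngII+HS. Of 6 propeptide genes, *Adamts3* was higher, at 22.5 and 51.2 CPM, and *Pcolce2* lower, at 496 and 143 CPM. Of 6 cross-linking genes, *Lox* at 185 and 423 CPM and *Loxl3* at 29.6 and 64.5 CPM were higher, and *Loxl4* lower. Of 12 fibril partners, *Lum*, *Postn*, *Thbs2* and *Comp* were higher, with *Comp* at 85.5 and 460.4 CPM, and *Tnxb* was lower, at 297 and 139 CPM. Of 8 receptors, 0 were higher, and the fibrillar collagen receptor *Ddr2* was lower, at 588 and 282 CPM. Of 7 other collagens, *Col11a1* was higher, at 3.23 and 79.0 CPM, together with *Col16a1* and with *Col24a1*, which had 0 UMIs in Control and 222 in AngII+HS.

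In VSMCs, 2.32% of all genes with at least 200 UMIs were at least 2-fold higher and 5.16% lower. Of 11 fibril partners, 6 were higher and 0 lower, among them *Fn1*, or fibronectin, at 3919.5 CPM in Control and 8722 CPM in AngII+HS, *Postn* at 661 and 1716 CPM, *Col6a3* at 173 and 433 CPM, and *Dcn* at 17.6 and 94.7 CPM. *Dcn* is also one of the fibroblast markers, and T and B cells had it at 33.4 and 128 CPM, above the VSMC level in each library. Of 18 folding genes, *Fkbp10* and *Sparc* were higher, and of 5 cross-linking genes *Loxl2* and *Loxl3*, with 0 lower in either list. Of 6 propeptide genes, *Pcolce* was higher, at 15.3 and 41.1 CPM, and *Adamts3* lower, at 9.49 and 2.47 CPM. Of 6 receptors, 0 were past 2-fold, and of 4 other collagens *Col18a1* and *Col16a1* were higher and *Col27a1* lower, at 51.2 and 14.2 CPM.

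In VECs, 4.4% of all genes with at least 200 UMIs were at least 2-fold higher and 3.36% lower. Of 15 folding genes, *P3h2*, *Fkbp10* and *Sparc* were higher and *P4ha2* lower. Of the 3 propeptide genes, *Pcolce2* was lower, at 102 and 13.9 CPM, and of 2 cross-linking genes *Lox*, a lysyl oxidase, was lower, at 177 and 81.4 CPM. *Lox* was lower in VECs and higher in fibroblasts, with no test of the difference. Of 6 fibril partners *Lum* was higher, of 5 receptors *Itga2*, and the 1 other collagen counted, *Col18a1*, was higher, at 89.8 and 342 CPM. *Lum* is also one of the fibroblast markers, which summed to 275 and 303 CPM in VECs and 64.6 and 256 CPM in T and B cells. The part of free RNA in the *Lum* value of VECs was not tested. In Schwann cells, 2.8% were higher and 1.17% lower. There, 0 of 6 folding genes and 0 of 2 receptors were past 2-fold, *Fn1*, *Postn* and *Col6a1* of 4 fibril partners were higher, *Col16a1* and *Col18a1* of 4 other collagens were higher, and no propeptide or cross-linking gene reached the minimum. *Fn1* in Schwann cells was 89.2 and 401 CPM, against 94.8 and 223 CPM in T and B cells, where all 4 fibril partners past the minimum were also higher in AngII+HS.

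Patterns over cell types were compared as a description, over 23 sums of a cell type in a library with at least 50 cells, which share libraries and depth. *Col5a2* was most like *Sparc*, with a Pearson correlation of 0.98, and *Col15a1* was most like *Naaladl2*, at 0.87. *Col1a1* and *Col1a2* correlated at 0.98 with each other, as did *Col1a2* and *Col3a1*. Outside the members, *Col1a1* was most like *Hand2* (0.90), *Col1a2* most like *Mmp23* (0.93) and *Col3a1* most like *Gpx8* (0.93), with the type VI chain *Col6a1* also at 0.93. *Col5a3* correlated at 0.47 with *Col1a1* and was most like *Cdh2*, at 0.93. *Col5a1* was most like *Maged2* (0.96), *Col8a1* most like *Sparc* (0.89), *Col12a1* most like *Chrdl1* (0.95) and *Col14a1* most like *Gria4* (0.92).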

How the data were processed

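Droplet-based 3′ single-cell RNA sequencing was made from 1 Control and 1 AngII+HS library. The authors made the UMI counts per gene and barcode with Cell Ranger and deposited them without normalization, so the values are whole counts. Cell Ranger 8.0.1 stands in the matrix headers and GRCm39 in the study's methods, while the submitters' notes name mm10. Coordinates printed come from GENCODE on GRCm39, and promoter sequences are from RefSeq on GRCm38.p6.

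The filter of the study's methods was used: a cell needed 500 UMIs, 200 genes and less than 20% of its UMIs from mitochondrial genes. Doublets were scored with Scrublet (scanpy 1.11.5) and the highest scores were removed at 0.8% per 1000 cells, which took 9.03% of Control and 19.6% of AngII+HS cells. The study used another doublet caller. R 4.3.3 with Seurat 5.3.0, SeuratObject 5.2.0 and Matrix 1.6.5 joined the libraries by anchors over 2000 variable genes, the 10 members left out, and Louvain clusters were taken at resolution 0.8 from 30 components. For VECs, a second clustering used 20 components and resolution 0.4. A cluster took the name of the cell type with the highest marker score (5 CPM added) provided that 3 or more markers of that type each had a UMI in 10% of the cells and that markers of other types did not prevail among its 10 leading genes. The details of this naming rule were settled after clusters had been seen.

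For each cell type of a library, UMIs were added up and scaled to CPM. Ratios carry exact binomial and levels exact Poisson 95% intervals for counting error only. With 1 library per group, there was no test between conditions. Genes with at least 50 UMIs formed the background of members and genes with at least 200 UMIs that of the lists, with 0.5 UMIs added for the background. A gene with 0 UMIs in 1 library was set at a bound of 3 counts. Of the lists (folding, propeptide removal, cross-linking, fibril partners, receptors and other collagens), genes past 2-fold were named, at most 4 per direction, those with the most UMIs first. Genes of like pattern were the 3 with the highest Pearson correlation of log2(CPM + 10) among genes with at least 500 UMIs, of which the report names some. The leading genes of clusters, *Serpinh1* and *Sox17* fall outside these rules and were chosen after their values were seen. The members and lists were chosen with earlier results of these data known. Some genes are not reported here. The ratio code was tested on simulated data. Python 3.11.15, numpy 2.4.6, pandas 2.3.3, scipy 1.17.1, matplotlib 3.10.9, edgeR 4.0.16 (TMM factors) and limma 3.58.1 were used.

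Alternatives were no or double doublet removal, a stricter filter (1000 UMIs, 500 genes, under 10% mitochondrial UMIs), merging without integration, members kept in clustering, resolutions 0.4 and 1.2, TMM scaling, scaling without mitochondrial genes and members, equal weight per cell, and subtraction of free RNA. Retained cells held 75294050 UMIs in Control and 80581691 in AngII+HS.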

Additional observations from a re-analysis of the deposited data

Results flagged for a closer look

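*Col15a1*, the type XV chain, differed in direction between cell types. Its log2 ratio of AngII+HS over Control was -1.09 in fibroblasts, 1.29 in VSMCs and 3.29 in VECs. The 3 values come from the same pair of libraries, and the difference between cell types was not tested. Arterial cells, low in *Col15a1*, were 488 of 838 Control and 384 of 1203 AngII+HS VECs, so that the VEC value also follows this make-up.

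Within VECs, *Col5a2* had a log2 ratio of 1.50 in arterial and -1.31 in venous cells, and *Col8a1* 1.70 in arterial and -1.59 in venous cells. Subclusters departed from this: *Col5a2* was 256 CPM in Control and 288 CPM in AngII+HS in venous subcluster 4, *Col8a1* 92.6 and 95.9 CPM there, and *Col8a1* 367 and 324 CPM in arterial subcluster 5. Subcluster 4 held 67 of 168 Control and 86 of 377 AngII+HS venous cells, so that the venous ratios also follow this make-up. In venous subcluster 2 of AngII+HS, neither gene was above T and B cells as CPM. Each direction rests on 1 library per group, and the difference between the subpopulations was not tested.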

How the results depend on the processing

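No paired analysis was possible because each group has 1 library, and for the same reason no replicate could be left out. The log2 ratio of the sum in fibroblasts, 1.85, was 1.87 at resolution 1.2, 1.75 with no doublets removed, 1.81 with double the doublets removed, 1.79 with the stricter filter, 1.77 merged without integration, 1.78 with members kept in clustering, 2.07 with TMM factors, 1.88 scaled without mitochondrial genes and members, 1.55 with equal weight per cell and 1.84 with free RNA subtracted as CPM. In VSMCs, 1.10 became 1.03 at resolution 0.4, 0.94 with double the doublets removed, 0.997 without integration, 1.07 with TMM factors, and 1.06 and 0.96 with free RNA subtracted as UMIs per cell and as CPM. In VECs, 1.31 became 2.49 with no doublets removed, 1.40 with double removed, and 1.15 and 0.40 with free RNA subtracted as UMIs per cell and as CPM. In Schwann cells, 1.14 became 1.61 with no doublets removed, 0.84 with equal weight per cell, and 1.03 and 0.96 with free RNA subtracted as UMIs per cell and as CPM. Chosen after seeing the data were the sums without cluster 8 in fibroblasts (1.90), without cluster 6 in VSMCs (1.07) and without the unnamed subclusters in VECs (1.38).

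The number of members at least 2-fold higher in VECs, 5, was 8 with no doublets removed, and 3 and 1 with free RNA subtracted as UMIs per cell and as CPM, and in Schwann cells 4 became 2 with equal weight per cell. The number of members in AngII+HS VECs above T and B cells, 4, was 10 with no doublets removed and 9 as UMIs per cell. The fibroblast share of member UMIs in Control, 43.0%, was 40.8% with no doublets removed, 47.0% with double removed, 41.7% with the stricter filter, 41.5% without integration and 42.1% with members kept. In AngII+HS, 93.3% became 90.5% with no doublets removed, 91.8% with double removed and 93.5% with the stricter filter. The cause of these shifts was not tested.

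Of single members, *Col5a3* in fibroblasts reversed to -0.27 with double the doublets removed, and *Col14a1* in VSMCs to -2.47 with free RNA subtracted as CPM. Of 140 single-member values in fibroblasts, 77 stayed within the counting interval, 62 lay outside it and 1 reversed. In VSMCs these counts were 83, 45 and 1 of 129, in VECs 102, 23 and 0 of 125, and in Schwann cells 119, 11 and 0 of 130. *Col12a1* in VECs and *Col14a1* in Schwann cells, whose intervals include 0, changed sign under 2 settings each. Subtraction left no value for 1 in VSMCs and 5 in VECs. Small UMI counts limit *Col5a3* in VSMCs, VECs and Control pericytes, *Col8a1* in Schwann cells, and *Col8a1* and *Col15a1* in Control T and B cells.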
